A study of Mus musculus with 8 samples.

Results

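The 9 genes described here, *Lss*, *Cyp51*, *Tm7sf2*, *Msmo1*, *Nsdhl*, *Hsd17b7*, *Ebp*, *Sc5d* and *Dhcr7*, encode enzymes that act after squalene on the way to cholesterol. They were chosen by name and found by gene identifier among the 55385 genes of the table, and all 9 passed the filter on low counts, as did 17445 genes in all. Expression was measured by RNA-seq in R1 cells, a single mouse embryonic stem cell (mESC) line of wild-type genotype. Per the labels of all 8 libraries, cells were grown on plates coated with poly-L-ornithine and laminin, in N2B27 medium with 2i inhibitors and Lif. They were infected for 2 days with a lentivirus carrying a short hairpin RNA (shRNA) and then kept for 3 days in puromycin, and polyadenylated RNA was sequenced. The 3 groups were compared. shRNA1 (3 libraries) and shRNA2 (3 libraries) both target *Eftud2*, a GTPase of the spliceosome, in its 3′ untranslated region and in its coding sequence respectively, and nt-shRNA (2 libraries) is a non-targeting control. Each group rests on 1 hairpin sequence and the libraries are labelled as biological replicates, so the p-values below measure the spread between such replicates of 1 line. In RNA from whole cultures, fewer cells expressing a gene and less RNA per cell cannot be told apart.

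Cholesterol is built from acetyl-CoA through mevalonate and squalene. After squalene is oxidised and closed into the ring system of lanosterol, the later enzymes remove methyl groups and move or reduce double bonds until cholesterol remains. Transcription of most of these genes is known to depend on SREBP factors, which are released from the endoplasmic reticulum when sterols are low and act at promoters together with NF-Y, a factor that binds CCAAT boxes, and Sp1, which binds GC boxes. Loss of the human counterparts of several of these enzymes causes malformation syndromes, of which the best known is Smith-Lemli-Opitz syndrome (*DHCR7*).

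The level of the targeted transcript *Eftud2* was 255.7 to 262.3 CPM (counts relative to the library total, scaled with TMM factors) in the control libraries, 225.3 to 231.9 CPM with shRNA1 and 198.2 to 234.7 CPM with shRNA2. Every KD library lay below both controls, and the decrease passed the threshold with shRNA2 (log2 fold change -0.29, adjusted p = 0.00122, edgeR's quasi-likelihood test) but not with shRNA1 (-0.18, adjusted p = 0.0514), where it passed in 5 of 15 alternative settings (adjusted p from 0.0206 to 0.498). By quantitative PCR the paper reports a larger decrease of *Eftud2* than these counts show, with both hairpins and more with shRNA2. It also reports less EFTUD2 protein with either. Total counts were 28548237 and 29871048 in the controls, 19569525 to 27501491 with shRNA1 and 21273977 to 22199116 with shRNA2. Both controls were thus sequenced deeper than every KD library. The 8 embryonic stem cell markers examined summed to between 6583 and 6974 CPM in every group, although 2 were lower and 3 higher with shRNA1, and 2 lower and 5 higher with shRNA2. For comparison, 17.1% of all genes tested were lower and 13.8% higher with shRNA1, and 28.7% and 27.2% with shRNA2. Single markers moved much further than their sum. The mean of *Dppa5a* was 2453 CPM in the controls, 1941 CPM with shRNA1 and 1258 CPM with shRNA2, that of *Nanog* 912.4, 1340 and 1549 CPM, and that of *Klf4* 185.0, 290.5 and 460.4 CPM. The 7 fibroblast markers summed to 4.60 to 5.02 CPM in the controls, 6.52 to 7.34 CPM with shRNA1 and 6.28 to 7.57 CPM with shRNA2, so both KD groups lay above the controls, with *Col1a1*, *Col1a2* and *Thy1* the only ones that passed the filter, and 6 primitive endoderm markers to 44.4 to 45.9 CPM in the controls, 42.3 to 48.6 CPM with shRNA1 and 35.1 to 41.3 CPM, below the controls, with shRNA2. With each shRNA 1 fibroblast marker was higher than in the controls. Of the 5 endoderm markers tested, none was called with shRNA1, *Gata6* was lower with shRNA2 (-0.75, adjusted p = 8.2e-04, edgeR), and *Gata6*, *Gata4* and *Sox17* were lower with shRNA2 than with shRNA1. These markers were named after their values were seen, and their part in the results below was not tested.

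Of the 9 enzyme transcripts, 7 fell with each *Eftud2* shRNA, and none rose. The same 7 passed the threshold in both comparisons, which share the 2 control libraries. Among all genes tested, 17.1% were lower and 13.8% higher with shRNA1, and 28.7% were lower and 27.2% higher with shRNA2. With shRNA1 this background depends on the settings. It went from 2981 lower and 2407 higher genes to 2078 and 1619 without shRNA1 replicate 2. With library size as the only scaling it was 1713 and 4101. Fewer genes were also called without nt-shRNA replicate 1, in a fit with 1 control library whose spread came from the shRNA groups. Over the 9 transcripts the log2 fold changes had a median of -0.81 with shRNA1 and -1.03 with shRNA2, while the median over all genes tested was -0.01 and 0.00. Summed over the 9 genes, the level went from between 716.3 and 788.2 CPM in the controls to between 384.2 and 428.4 CPM with shRNA1 and between 334.5 and 345.6 CPM with shRNA2. Of the 7, *Nsdhl* and *Ebp* had the least negative fold changes with each hairpin. *Hsd17b7* and *Sc5d* did not pass the threshold with either shRNA.

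**Figure D1:**
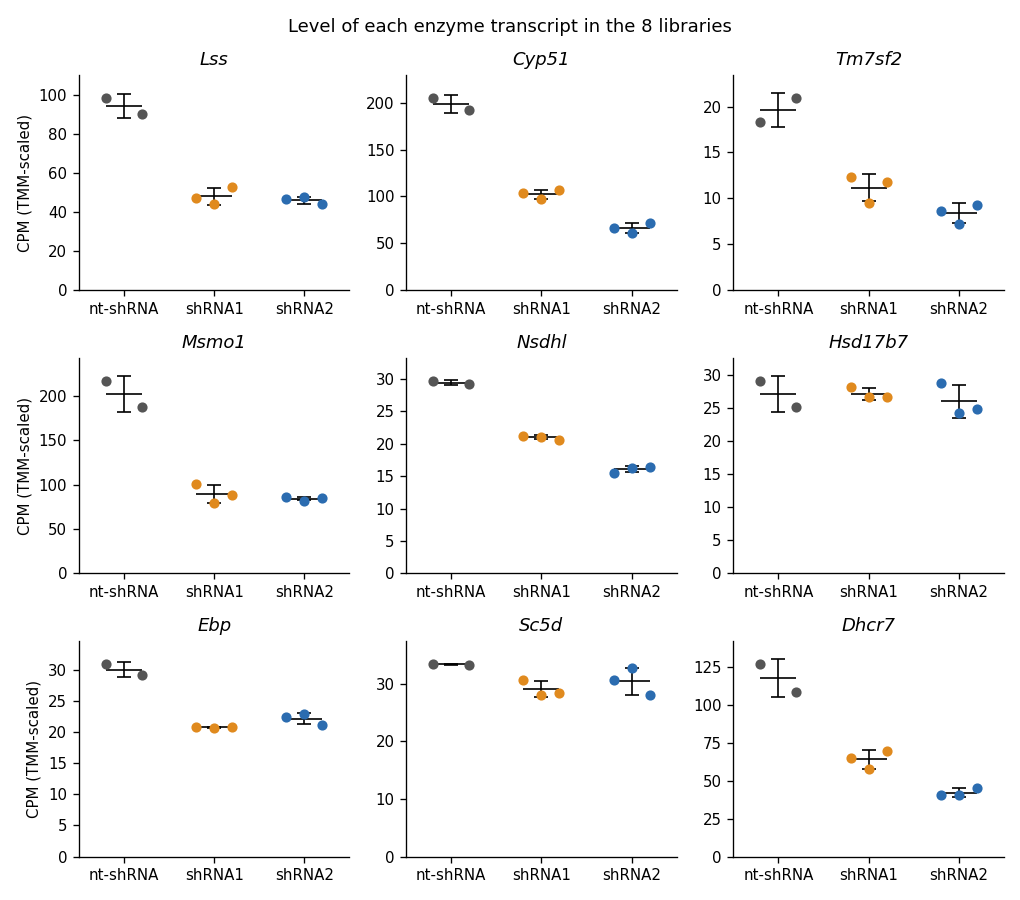
Level of each of the 9 transcripts (vertical axes, TMM-scaled CPM from 0) in the nt-shRNA, shRNA1 and shRNA2 libraries. Points are libraries, and bars give the mean and SD (n = 2, 3 and 3). *Cyp51* ranges from 192.2 to 205.3 CPM in the controls and from 61.4 to 71.5 CPM with shRNA2, whereas the 3 groups overlap for *Hsd17b7*.

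The stretches of 250 bases before the annotated start of 3 of the genes are shown first, because they span the response: *Cyp51* and *Dhcr7* had the most negative fold changes with shRNA2, and *Hsd17b7* had the fold change nearest to 0. The starts and sequences are those of RefSeq on GRCm38.p6, with the sequences written 5′ to 3′ in the direction of transcription. These starts differ from the ends of the GENCODE gene spans given below. The whole *Dhcr7* stretch, and part of the *Cyp51* and *Hsd17b7* stretches, lie inside those spans. Capitals mark matches, on either strand, to the CCAAT box (CCAAT), the GC box (GGGCGG), the E-box (CACGTG) and the sterol regulatory element (TCACNCCAC). *Cyp51* is read from chr5:4104698-4104947 on the minus strand, *Dhcr7* from chr7:143829964-143830213 on the plus strand, the only one of its 3 listed starts with a CCAAT box, and *Hsd17b7* from chr1:169969206-169969455 on the minus strand.
Cyp51: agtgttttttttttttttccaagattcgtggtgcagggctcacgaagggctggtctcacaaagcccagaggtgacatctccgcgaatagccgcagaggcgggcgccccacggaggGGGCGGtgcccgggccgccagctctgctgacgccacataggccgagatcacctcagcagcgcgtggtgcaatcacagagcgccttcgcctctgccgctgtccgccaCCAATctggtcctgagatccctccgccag
Dhcr7: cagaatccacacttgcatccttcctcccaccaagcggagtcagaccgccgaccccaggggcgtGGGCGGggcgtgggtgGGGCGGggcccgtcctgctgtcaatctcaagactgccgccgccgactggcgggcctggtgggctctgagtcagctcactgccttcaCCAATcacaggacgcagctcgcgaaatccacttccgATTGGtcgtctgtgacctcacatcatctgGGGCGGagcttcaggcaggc
Hsd17b7: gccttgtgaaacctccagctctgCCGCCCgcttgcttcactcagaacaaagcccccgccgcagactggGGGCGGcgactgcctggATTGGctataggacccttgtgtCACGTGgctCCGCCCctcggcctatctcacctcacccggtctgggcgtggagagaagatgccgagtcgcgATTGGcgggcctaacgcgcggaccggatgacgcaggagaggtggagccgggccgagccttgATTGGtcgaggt
All 9 genes were matched to 11 windows of 300 bases that reach 50 bases past the start. A CCAAT box was present in 9 of the 11 windows and in at least 1 window of every gene, against 37.4% of all 32851 windows of that length. A GC box was present in 10 of the 11, against 35.7% of all windows. The E-box was found at *Hsd17b7*, at *Sc5d* and at 1 start of *Dhcr7*, against 7.15% of all windows. The exact letters of the sterol regulatory element occurred in none of the 11, and in 1.24% of all windows. Only these letters were searched, and they are rare in windows of any gene. Their absence therefore does not show that these promoters lack such an element. In *Hsd17b7* the 3 CCAAT boxes began 165, 73 and 12 bases before the start. In *Cyp51* the only one began 29 bases before it, and in *Dhcr7* 2 began 85 and 49 bases before it. A CCAAT box was thus found both at transcripts that fell and at the 2 that were not called, and a match of letters is not evidence of binding.

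**Figure D2:**
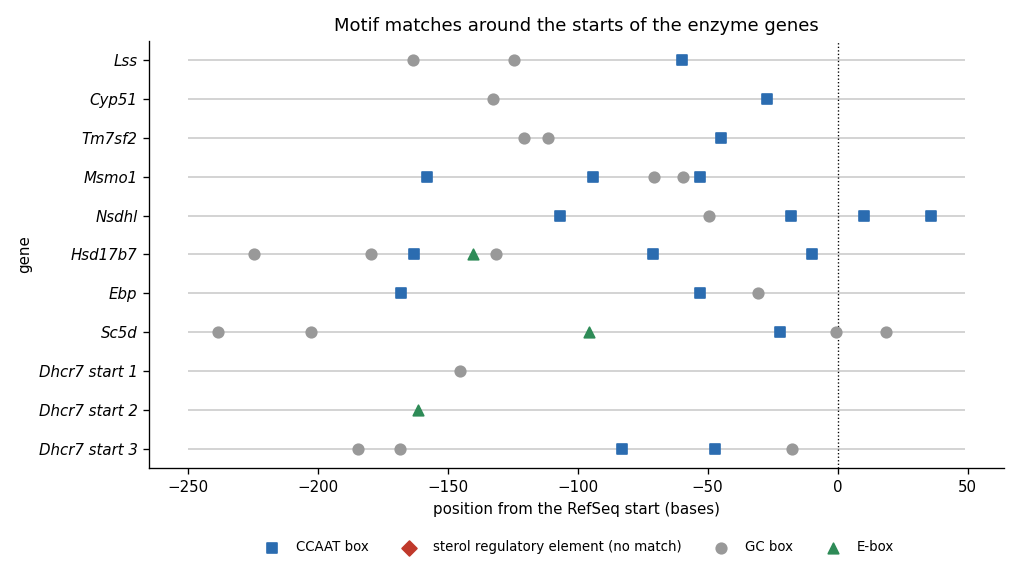
Motif matches in the 11 promoter windows of the 9 genes (horizontal axis, bases from the RefSeq start, with the start at the dotted line). Squares are CCAAT boxes, circles GC boxes and triangles E-boxes. Each gene has a CCAAT box in at least 1 window. No window has the 9-letter form of the sterol regulatory element, the only form searched.

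*Lss* (ENSMUSG00000033105.12, chr10:76531588-76557138 of GRCm38, plus strand, 21 exon blocks) encodes lanosterol synthase, which closes oxidosqualene into the ring system. Its level was 98.5 and 90.1 CPM in the controls, 47.0, 44.3 and 52.7 CPM with shRNA1 and 46.5, 47.5 and 44.2 CPM with shRNA2. Both KD groups lay below the controls and overlapped each other. The log2 fold change was -0.97 with shRNA1 (SE 0.0758, adjusted p = 5.7e-08, edgeR) and -1.03 with shRNA2 (SE 0.0761, adjusted p = 2.4e-09). The hairpins differed by -0.06 on the log2 scale, with a 95% interval from -0.21 to 0.09 (adjusted p = 0.521).

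*Cyp51* (ENSMUSG00000001467.5, chr5:4081145-4104746, minus strand, 10 exon blocks) encodes lanosterol demethylase, the cytochrome P450 that removes the first methyl group and the target of azole drugs in fungi. Its level was 205.3 and 192.2 CPM in the controls, 103.4, 97.0 and 106.7 CPM with shRNA1 and 65.9, 61.4 and 71.5 CPM with shRNA2. The 3 groups did not overlap. With shRNA1 its transcript was 48.5% below the control (log2 fold change -0.96, adjusted p = 1.9e-08, edgeR). With shRNA2 it was 66.7% below (-1.58, SE 0.0687), the most negative value among the 9. The drop from shRNA1 to shRNA2 was itself past the threshold, at -0.63 on the log2 scale (SE 0.0639, adjusted p = 1.7e-06).

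*Tm7sf2* (ENSMUSG00000024799.16, chr19:6062821-6068373, minus strand, 6 exon blocks) encodes a sterol reductase that removes the double bond left by demethylation. It had the lowest counts of the 9, from 160 to 601 per library, and 12.1% of its exon bases were shared with *Vps51* on the same strand. Its level was 18.3 and 20.9 CPM in the controls, 12.3, 9.48 and 11.7 CPM with shRNA1 and 8.60, 7.22 and 9.32 CPM with shRNA2. The groups did not overlap, although the shRNA1 and shRNA2 libraries came within 0.16 CPM of each other. The log2 fold change was -0.81 (SE 0.125, adjusted p = 8.3e-05, edgeR) with shRNA1 and -1.23 (SE 0.129, adjusted p = 1.9e-07) with shRNA2. *Lbr*, whose lamin B receptor has the same reductase activity, had smaller changes, at -0.24 (adjusted p = 0.00434) and -0.45 (adjusted p = 3.0e-06), and its call with shRNA1 was lost in 2 of 15 alternative settings. The difference between shRNA2 and shRNA1 for *Tm7sf2* was -0.42 (adjusted p = 0.0132), but not past the threshold without shRNA1 replicate 1 (adjusted p = 0.0667) or without shRNA2 replicate 2 (adjusted p = 0.0722).

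*Msmo1* (ENSMUSG00000031604.10, chr8:64718139-64733792, minus strand, 8 exon blocks) encodes the methylsterol monooxygenase that starts the removal of the remaining pair of methyl groups. Its level was 216.6 and 187.8 CPM in the controls, 100.1, 79.3 and 88.2 CPM with shRNA1 and 85.5, 82.0 and 84.8 CPM with shRNA2. Every KD library was below both controls, and the shRNA2 libraries lay within the range of shRNA1. It had the most negative fold change of the 9 with shRNA1 (-1.18, SE 0.0797, adjusted p = 1.4e-08, edgeR) and changed by -1.27 with shRNA2 (adjusted p = 3.8e-10). The difference of -0.09 between hairpins did not pass the threshold (95% interval -0.24 to 0.07, adjusted p = 0.393).

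*Nsdhl* (ENSMUSG00000031349.4, chrX:72918557-72958514, plus strand, 8 exon blocks) encodes the dehydrogenase that removes the oxidised carbon as carbon dioxide. Its level was 29.7 and 29.2 CPM in the controls, 21.2, 21.1 and 20.6 CPM with shRNA1 and 15.5, 16.3 and 16.4 CPM with shRNA2. The 3 groups were well apart for their spread. Its log2 fold change was -0.49 with shRNA1 and -0.87 with shRNA2 (edgeR, adjusted p = 2.1e-04 and 7.2e-08), and the difference between hairpins was -0.39 (SE 0.0797, adjusted p = 0.00105).

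*Hsd17b7* (ENSMUSG00000026675.12, chr1:169949535-169969241, minus strand, 10 exon blocks) encodes the ketoreductase, also active on estrogens, that completes removal of the methyl groups *Msmo1* acts on. Its level was 29.0 and 25.1 CPM in the controls, 28.1, 26.6 and 26.6 CPM with shRNA1 and 28.8, 24.2 and 24.8 CPM with shRNA2. All 3 groups overlapped. The log2 fold change was 0.00 with shRNA1 (95% interval -0.19 to 0.20, adjusted p = 0.996, edgeR) and -0.06 with shRNA2 (-0.26 to 0.14, adjusted p = 0.602), the sign of the latter turning when libraries were scaled by size alone (0.03). These intervals do not reach the values of any of the 7 transcripts that fell in the same comparison.

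*Ebp* (ENSMUSG00000031168.14, chrX:8185329-8193512, minus strand, 4 exon blocks) encodes the isomerase that shifts a ring double bond. Its level was 30.9 and 29.1 CPM in the controls, 20.8, 20.7 and 20.8 CPM with shRNA1 and 22.4, 22.9 and 21.1 CPM with shRNA2. The shRNA1 libraries were the lowest here, and each lay below every shRNA2 library. The log2 fold change was -0.53 with shRNA1 (SE 0.0829, adjusted p = 8.9e-05, edgeR) and -0.44 with shRNA2 (SE 0.0829, adjusted p = 1.8e-04). The difference of 0.09 between hairpins did not pass the threshold (95% interval -0.07 to 0.26, adjusted p = 0.374).

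*Sc5d* (ENSMUSG00000032018.14, chr9:42251595-42264256, minus strand, 7 exon blocks) encodes a desaturase that adds a ring double bond. Its level was 33.4 and 33.3 CPM in the controls, 30.6, 28.0 and 28.4 CPM with shRNA1 and 30.7, 32.7 and 28.0 CPM with shRNA2. Every KD library lay below both controls, by a margin that did not pass the threshold. The log2 fold change was -0.20 with shRNA1 (95% interval -0.37 to -0.03, adjusted p = 0.0734, edgeR) and -0.13 with shRNA2 (-0.30 to 0.04, adjusted p = 0.191).

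*Dhcr7* (ENSMUSG00000058454.15, chr7:143823145-143848410, plus strand, 12 exon blocks) encodes the reductase that removes the double bond of 7-dehydrocholesterol, the sterol from which vitamin D is made in skin. Its level was 126.6 and 108.6 CPM in the controls, 64.9, 57.6 and 69.7 CPM with shRNA1 and 40.6, 40.3 and 45.4 CPM with shRNA2. The 3 groups did not overlap. The transcript was 45.4% below the control with shRNA1 (log2 fold change -0.87, adjusted p = 4.3e-07, edgeR) and 64.2% below it with shRNA2 (-1.48, SE 0.0845). The hairpins differed by -0.61 (SE 0.0793, adjusted p = 1.7e-05).

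**Figure D3:**
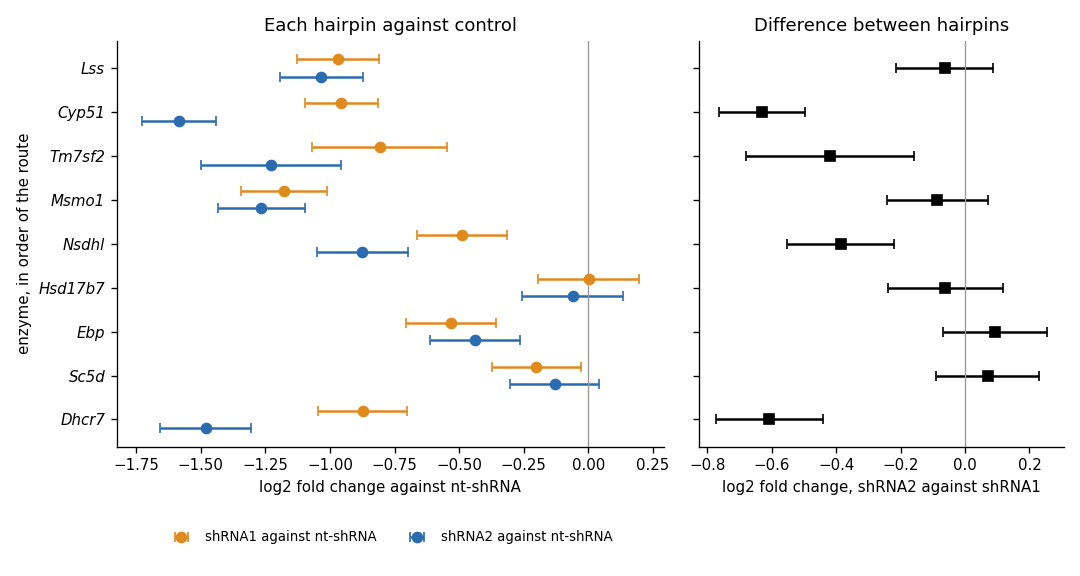
Log2 fold changes of the 9 transcripts, in the order of the route from top to bottom, with 95% intervals from edgeR. The left panel sets each shRNA against nt-shRNA and the right panel sets shRNA2 against shRNA1. *Cyp51*, *Tm7sf2*, *Nsdhl* and *Dhcr7* lie wholly below 0 in the right panel, whereas the other 5 intervals include 0.

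The hairpins were also set against each other directly. *Cyp51*, *Tm7sf2*, *Nsdhl* and *Dhcr7* were lower with shRNA2 than with shRNA1, by 23.5% to 35.3%. No member was higher. Of all genes tested, 18.7% were lower and 16.9% higher in this comparison, and the median of the 9 was -0.09 against 0.00 over all genes. *Lss*, *Msmo1* and *Ebp*, which fell with both hairpins, differed between them by -0.09 to 0.09 on the log2 scale. The interval for *Cyp51* (-0.76 to -0.50) did not overlap that for *Msmo1* (-0.24 to 0.07).

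The levels of different genes were compared per kilobase of the deposited exon length. In the controls the order was *Cyp51* (45.0 CPM per kb), *Msmo1* (32.9), *Dhcr7* (20.2), *Ebp* (13.0), *Nsdhl* (10.3), *Lss* (8.74), *Sc5d* (6.85), *Hsd17b7* (5.30) and *Tm7sf2* (4.46), and no neighbours in this order overlapped. With shRNA1 the leading 5 and the last were as in the controls, and *Lss*, at 4.45 CPM per kb, came after *Sc5d* (5.96) and *Hsd17b7* (5.30). With shRNA2 *Cyp51* (15.0) and *Msmo1* (13.7) overlapped, as did *Nsdhl* (5.63) and *Hsd17b7* (5.08), and *Ebp* (9.59) stood above *Dhcr7* (7.24). *Cyp51* made up 30.7% ± 0.435 (SD, n = 2) of the summed level per length in the controls, 27.8% ± 0.601 (SD, n = 3) with shRNA1 and 21.8% ± 1.34 (SD, n = 3) with shRNA2. The share of *Sc5d* went from 4.68% to 7.16% and 9.12%, and that of *Hsd17b7* from 3.61% to 6.37% and 7.40%, with levels of their own that did not differ past the threshold. The order and the shares depend on the length used. Per kilobase of the longest coding transcript, *Msmo1* came first in the controls (98.9 CPM per kb), ahead of *Cyp51* (50.6), *Dhcr7* (41.8) and *Lss* (20.2). On that length *Cyp51* made up 18.9% ± 0.411 (SD, n = 2) of the sum in the controls, 18.1% ± 0.607 (SD, n = 3) with shRNA1 and 13.97% ± 0.816 (SD, n = 3) with shRNA2. The share of *Sc5d* was then 2.60%, 4.22% and 5.28%, and that of *Hsd17b7* 2.19%, 4.09% and 4.67%. The deposited length of *Lss*, over all its exons joined, is 10787 bases, and its longest coding transcript has 4667.

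**Figure D4:**
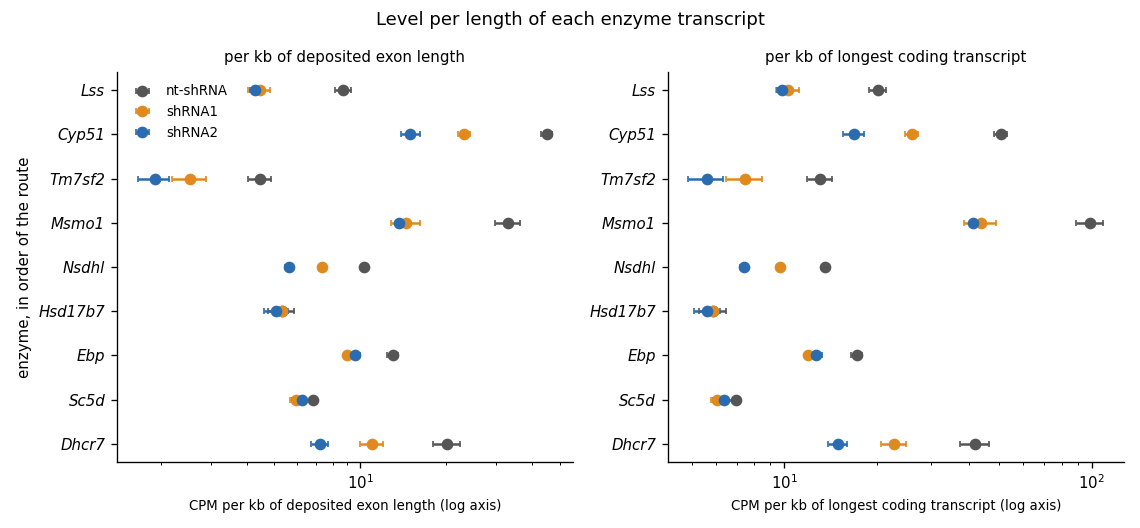
Level per length of the 9 transcripts (horizontal log axes, CPM per kb; points are group means, bars SD, n = 2, 3 and 3) with the deposited exon length on the left and the length of the longest coding transcript on the right. In both panels *Hsd17b7* has the same level in the 3 groups within its spread, and *Cyp51* lies at 45.0, 23.2 and 15.0 CPM per kb on the left.

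Of 8 other genes of the same route, 4 fell with shRNA1 and 6 with shRNA2, and none rose. Over all genes tested, 17.1% were lower and 13.8% higher with shRNA1, and 28.7% and 27.2% with shRNA2. *Sqle*, the squalene epoxidase that supplies *Lss*, had 118.5 and 118.7 CPM in the controls, 69.1 to 74.7 CPM with shRNA1 and 63.0 to 64.4 CPM with shRNA2, with log2 fold changes of -0.71 (adjusted p = 1.6e-07, edgeR) and -0.90 (adjusted p = 1.0e-09). *Erg28*, a scaffold of the demethylation complex, fell by 0.49 and 0.68 on the log2 scale. Among the electron donors, *Cyb5r3*, a cytochrome b5 reductase, fell by 0.44 and 0.73, and *Por*, the P450 reductase, changed by -0.11 (adjusted p = 0.242) and -0.27 (adjusted p = 0.0032). *Cyb5a* had -0.18 (adjusted p = 0.0709) and -0.19 (adjusted p = 0.033), the latter not past the threshold in 5 of 15 alternative settings. *Pgrmc1*, which binds P450 enzymes, and *Cyb5b* were not called with either hairpin, with values between -0.12 and 0.08.

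All 8 genes examined of the route up to squalene fell with both hairpins, with medians of -0.61 with shRNA1 and -0.78 with shRNA2. *Hmgcs1*, an HMG-CoA synthase, had -0.79 and -1.08, *Fdft1*, squalene synthase, had -0.85 and -1.01, and *Fdps*, farnesyl diphosphate synthase, had -0.98 and -1.23. Each of these 3 shares exon bases with another gene, *Fdps* 26.7% (7 counts in all for the other gene), *Fdft1* 18.8% with *Ctsb* on the opposite strand (46711 counts, against 24372 of its own) and *Hmgcs1* 12.1% (71 counts). *Mvk*, mevalonate kinase, had -0.27 with each (adjusted p = 0.0313 and 0.0176, edgeR), and its call was lost in 8 of 15 alternative settings with shRNA1 and in 2 with shRNA2. In the list of 17 genes for sterol sensing, uptake and efflux, 9 were lower and 1 higher with shRNA1, and 10 were lower and 3 higher with shRNA2. The shares over all genes tested were 17.1% lower and 13.8% higher with shRNA1, and 28.7% and 27.2% with shRNA2. *Insig1*, which retains the SREBP complex in the endoplasmic reticulum and is itself an SREBP target, fell by 0.91 and 1.49 on the log2 scale. *Srebf2*, which encodes the SREBP most tied to cholesterol genes, fell by 0.88 and 1.24, and *Abcg1*, a sterol exporter, fell by 0.61 and 1.48. *Nr1h2*, a sterol-sensing nuclear receptor, had 0.00 and -0.01, with the sign unstable around 0. The direction differed within this list, since *Abca1*, another exporter, was higher by 0.46 and 0.54 (adjusted p = 2.6e-04 and 1.2e-05). *Abca1* was chosen after its values were seen.

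The genes whose profile over the 8 libraries was nearest to the mean of the 9, by root mean square distance of centred log2 CPM, were *Sqle* (0.0323), *Tmem256* (0.0457), *Stard4* (0.0493), *Npc2* (0.0513) and *Plpp5* (0.0548). Their correlations with that mean were between 0.989 and 0.996 over the 8 libraries, which fall into 3 groups, so the values mostly describe the order of the groups. *Stard4* and *Npc2* carry cholesterol between membranes and out of lysosomes. *Tmem256* had log2 fold changes of -0.61 and -0.83 and *Plpp5*, a lipid phosphatase, of -0.66 and -0.84 with shRNA1 and shRNA2. These are close to the mean of the 9, but not to any single member with a larger change, such as *Cyp51*.

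**Figure D5:**
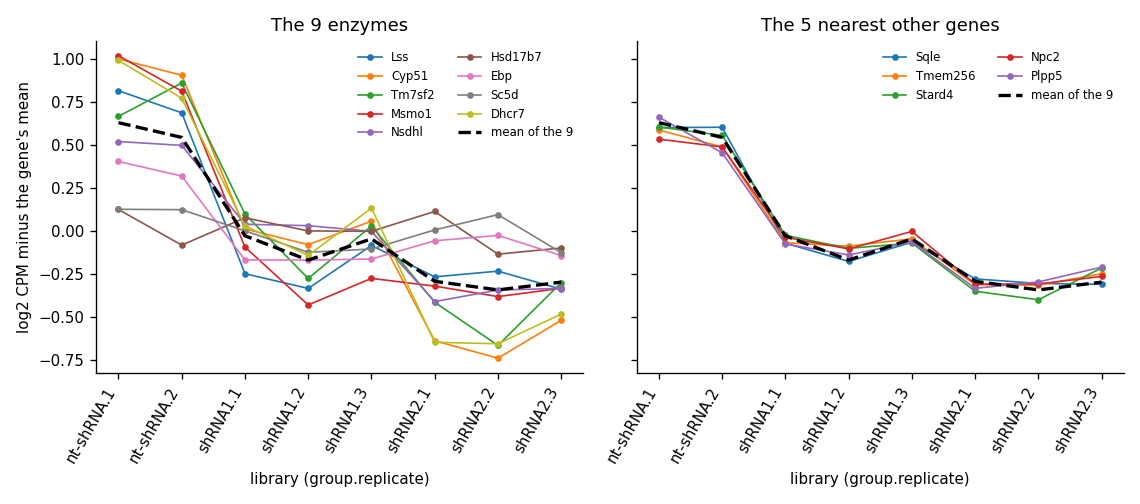
Log2 CPM minus each gene's mean over the 8 libraries (vertical axis) for the 9 enzymes (left) and the 5 nearest other genes (right), with the mean of the 9 dashed. The mean is 0.63 and 0.54 in the nt-shRNA libraries, -0.17 to -0.03 with shRNA1 and -0.34 to -0.29 with shRNA2.

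Within groups the libraries differed too. Relative to the control mean, the median log2 difference of the 9 transcripts was -0.66, -1.02 and -0.73 in shRNA1 replicates 1 to 3, and -1.02, -0.99 and -1.06 in shRNA2 replicates 1 to 3. shRNA1 replicate 2 thus lay within the range of the shRNA2 libraries by this median, and it held the lowest shRNA1 value of *Lss*, *Cyp51*, *Tm7sf2*, *Msmo1*, *Ebp*, *Sc5d* and *Dhcr7*. The SD between libraries of 1 group was at most 13.4% of the mean for each of the 9 transcripts. Each of the 7 calls against the controls held in every alternative setting with both controls. With 1 control left, the spread came from the shRNA groups alone, and these 7 fold changes stayed negative. The calls for *Cyp51*, *Nsdhl* and *Dhcr7* between hairpins held in all 15 alternative settings.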

How the data were processed

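Poly(A)-selected RNA of the 8 libraries was sequenced by the authors, aligned with STAR to mm10 (GRCm38) and counted on the exons of GENCODE M24 genes with featureCounts 1.6.2, per the file header and the submitters' processing notes. The deposited values are raw counts per gene. Strand was not used in the counting, and a fragment that aligned to more than 1 place or overlapped more than 1 gene was dropped, so the exon bases that *Lss* (3.53%), *Cyp51* (3.76%) and *Tm7sf2* (12.1%) share with other genes gave no counts. Symbols came from GENCODE M21 (55144 of 55385 genes).

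The counts were tested with edgeR 4.0.16 (R 4.3.3). Genes passing filterByExpr (minimum count 10) were scaled by TMM (factors 0.935 to 1.036) and tested with glmQLFit and glmQLFTest in 1 fit over all 8 libraries that had 1 coefficient for each group and no replicate term, and p-values were adjusted by Benjamini-Hochberg over all genes tested, with a threshold of 0.05. Standard errors and 95% intervals came from that fit. Profiles used log2 CPM with a prior count of 2. Tested on simulated counts of 17092 genes, the code called 195 of 200 genes changed 2-fold (shRNA2 against nt-shRNA), with 4.41% false calls. The simulation gave all genes the same spread and changed far fewer genes than were called in the data. It therefore checks the code, and its rate of false calls does not carry over to the data. No library repeated another within sampling noise.

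The members and lists were chosen with earlier results of these data known, and 1 gene of each of the 2 lists of other route enzymes is not reported here. Named genes are the members, *Eftud2*, the listed genes of the same route, the 3 smallest and the largest adjusted p under shRNA2 in the lists of upstream and of sensing genes, and the 5 nearest profiles. Other genes, cell type markers and *Abca1* among them, were named after their values were seen. Alternatives were DESeq2 1.42.0, its size factors, library size alone, the replicate block, no filter, a minimum of 10 counts throughout, a fit of just the groups compared, each library left out and, chosen after seeing the data, another gene length. Promoter windows came from RefSeq (GRCm38.p6).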

Additional observations from a re-analysis of the deposited data

How the results depend on the processing

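Each hairpin had 7 members lower in every alternative run with both controls. With 1 control left, the spread came from the shRNA groups alone, and the log2 fold changes of these 7 stayed negative. Between hairpins 4 were lower with shRNA2, except without shRNA1 replicate 1 or without shRNA2 replicate 2 (3 in each). The depth of 160 or more counts per member and library leaves these counts resting on 2 or 3 libraries a group of 1 cell line. Of 135 values of the 9 transcripts in the alternatives of each comparison, 132 with shRNA1, 133 with shRNA2 and 131 between hairpins kept their direction and side of the threshold. With library size as the only scaling, the median log2 fold change of all genes was 0.11 with shRNA1 and 0.09 with shRNA2, and the calls with shRNA1 went from 2981 lower and 2407 higher to 1713 lower and 4101 higher. Without shRNA1 replicate 2 the calls with shRNA1 were 2078 lower and 1619 higher. Fewer genes were also called without nt-shRNA replicate 1, where 1 control was left. The signs that turned belonged to log2 fold changes near 0 that were not called, and the cause was not tested. With shRNA1 these were *Pgrmc1* (0.032) and *Por* (0.0016) with library size alone, and *Hsd17b7* (-0.0039) and *Nr1h2* (-0.0027) with no filter. With shRNA2 they were *Hsd17b7* (0.030) and *Nr1h2* (0.082) with library size alone, *Nr1h2* (0.018) with 10 counts throughout, and *Cyb5b* (-0.0066) with no filter. When 1 library was left out, *Hsd17b7* ranged from -0.10 to 0.11 and *Nr1h2* from -0.080 to 0.074 with shRNA1, and *Hsd17b7* from -0.17 to 0.043, *Cyb5b* from -0.017 to 0.044 and *Nr1h2* from -0.036 to 0.016 with shRNA2. Between hairpins the ranges were -0.12 to 0.011 for *Lss*, -0.16 to 0.0035 for *Msmo1*, -0.068 to 0.036 for *Cyb5a*, -0.056 to 0.056 for *Mvk* and -0.080 to 0.073 for *Nr1h2*.

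Same-numbered libraries of shRNA1 and shRNA2 correlated by 0.0223, 0.0566 and 0.0742 in their deviations from group means. None was over 0.1 and the numbers were not used to pair libraries. Between these 2 groups each library correlated best with its own number, except shRNA2 replicate 1, which did so with shRNA1 replicate 2 (0.0277). With the replicate block 3324 genes were lower and 2694 higher with shRNA1, 7 members were lower with each hairpin and 4 between hairpins, *Eftud2* had -0.21 with shRNA1 (adjusted p = 0.0206, edgeR), *Nr1h2* had -0.041 with shRNA1 and *Mvk* 0.0006 between hairpins.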
